A study of Mus musculus with 17 samples.

Results

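Limb buds of mouse embryos that carry the Dup-LΔBor allele were compared with wild-type (WT) limb buds by polyA RNA sequencing at stage E12.5, in mid-gestation. The comparison rests on 8 of the 15 libraries that have a column in the deposited count table: 4 of Dup-LΔBor, which keep their column names R2, R3, R4 and R5, and 4 of WT, numbered 1 to 4. They were chosen by genotype label alone, not by any measured value. Dup-LΔBor joins Dup-L, a duplication at the Sox9-Kcnj locus of chromosome 11, with ΔBor, a deletion of the domain boundary there. The labels give genotype, age and tissue. They do not give the zygosity of Dup-LΔBor, the strain, how the embryos were produced, whether replicates were separate embryos, or whether forelimbs or hindlimbs were taken. Since separate embryos are not stated, a p-value reflects only how far these libraries vary, and that variation may be technical. The other 7 libraries (2 Dup-C, 2 Dup-L, 2 heterozygous ΔBor and 1 homozygous ΔBor) are used only where named, and 2 fingertip samples of a later stage are not analysed here.

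The study asks how duplications and loss of a boundary at this locus alter the genes around it. Sox9 encodes a transcription factor needed for cartilage, and its neighbours Kcnj2 and Kcnj16 encode inward-rectifier potassium channels, which hold the membrane potential near that of potassium. A boundary separates their regulatory domains, so that enhancers of the Sox9 side normally act little on Kcnj2. Here the locus is described first, and then the genes elsewhere in the genome that differed between the groups. These include noncoding RNAs of the imprinted Dlk1-Dio3 region, genes of the Xlr3 cluster on the X chromosome, and genes of glycolysis and cholesterol synthesis.

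The 8 libraries held between 34486256 and 53711742 counts. WT 1 and WT 3 had 59.8 and 70.1 CPM (a count scaled to a fixed library size) of Pitx1, a regulator of hindlimb identity, while WT 2 and WT 4 had 1.83 CPM each. All 4 Dup-LΔBor libraries were high in Pitx1, from 40.5 to 73.9 CPM, so by Pitx1 limb type was matched only against WT 1 and WT 3. Tbx4, another hindlimb gene, was at 92.95 to 109.3 CPM in Dup-LΔBor, above WT 1 (64.4 CPM) and WT 3 (86.5 CPM). WT 2 and WT 4 held 25.8 and 27.6 CPM of Tbx4. Its log2 fold change was 0.41 against WT 1 and 3 (adjusted p = 0.04999, edgeR) and 0.98 against all WT (adjusted p = 0.10). The library numbers in the column headers fall in 2 ranges, the second of which holds Dup-LΔBor, WT 3 and WT 4. The headers of R4 and R5 share a library number. The mean chi-square per gene between their counts was 25.6, within the 5.94 to 33.3 of the other Dup-LΔBor pairs. Xist, the RNA of the inactive X chromosome, reached 2265 CPM in WT 1, while none of the other 7 libraries was above 1.01 CPM. Limb mesenchyme markers were present in all 8, with Prrx1 from 471 to 732 CPM and Hoxd13 from 479 to 688 CPM.

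In the comparison of all 4 Dup-LΔBor with all 4 WT libraries, 679 of 17655 tested genes had an adjusted p under 0.05 (edgeR quasi-likelihood F-test, two-sided, Benjamini-Hochberg over all genes tested), or 3.85%. Of these, 397 rose (2.25%) and 282 fell (1.60%), and 144 differed by at least 2-fold. Without overlap between the 4 values of each group stood 2174 genes, or 12.3%, of which 630 were also past the threshold. The called genes were spread over the genome, with 2.61% to 5.73% of the tested genes past the threshold on each autosome and on the X chromosome. Against the Pitx1-high WT 1 and WT 3 alone, 1447 of 17567 genes passed (8.24%), of which 829 rose (4.72%) and 618 fell (3.52%), and 493 of the 679 were among them. Against WT 3 and WT 4, which share the library-number range, 121 of 17572 passed (0.689%), and 87 of the 679 were among them.

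The number of called genes depended on which libraries entered. It was 322, 180, 1087 and 1516 without WT 1, 2, 3 and 4, and 157, 81, 174 and 313 without R2, R3, R4 and R5. With only the 8 libraries in the fit it was 114, with R4 and R5 summed to 1 library 227, and with library-number range as a term 70. The split also moved: DESeq2 called 785 higher and 849 lower, and limma on log2(FPKM + 1) called 300 higher and 380 lower. A set of 46 genes (0.261%) passed against all WT, against both matched pairs and with each of the 8 libraries left out in turn, a criterion added after the data were seen. It holds 19 genes that rose and 27 that fell, and these genes are named as "passing every check" in what follows. The term covers those checks alone. It leaves out other alternatives, such as WT 3 alone, only the 8 libraries, library-number range as a term, DESeq2 and limma. Part of the 46 lost the threshold in such fits. Of 22 alternative fits Kcne3 passed in 19, Agtr2 in 18 and Xlr3a in 20, while Kcnj2, Meg3, Rian and Igf2 passed in 22.

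**Figure D1:**
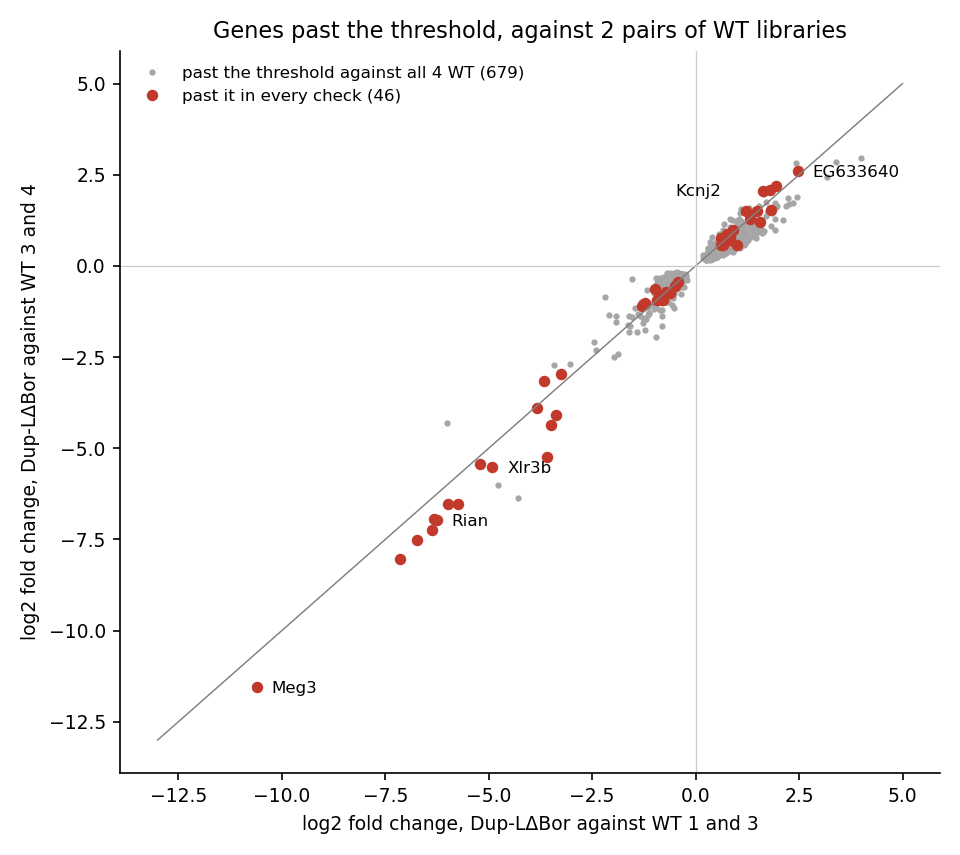
Log2 fold change of Dup-LΔBor against WT 1 and 3 (horizontal axis) and against WT 3 and 4 (vertical axis) for the 679 genes past the threshold against all 4 WT libraries; red points are the 46 that passed every check, and the diagonal marks equal values. Meg3 lies farthest from 0, at -10.61 and -11.54; both comparisons reuse Dup-LΔBor and WT libraries on which the 679 were called and share WT 3, so a shared sign is not independent evidence.

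At the engineered locus, Kcnj2 was the gene that rose most. Its level was 69.4, 55.2, 58.4 and 45.7 CPM in R2 to R5 and 26.2, 21.7, 22.2 and 17.6 CPM in WT 1 to 4. Every Dup-LΔBor library was above every WT library. The log2 fold change was 1.38 (SE 0.16, adjusted p = 5.2e-04, edgeR), with 1.23 against WT 1 and 3 and 1.50 against WT 3 and 4, and Kcnj2 passed every check. Per transcript length, its FPKM (fragments scaled by transcript length and library size) was 7.22 to 11.01 in Dup-LΔBor and 2.91 to 4.25 in WT, below that of Sox9 in the same libraries (26.6 to 38.4 and 26.8 to 35.1 FPKM).

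Sox9 itself was at 184, 160, 127 and 140 CPM in R2 to R5 and at 162, 161, 136 and 124 CPM in WT 1 to 4. The ranges overlapped almost fully, and the log2 fold change was 0.07 (SE 0.12, adjusted p = 0.765, edgeR), changing sign without WT 4 or without R2. Kcnj16, the other potassium channel gene of the locus, had at most 0.0538 CPM in any of the 8 libraries and was not tested, so a difference was not detectable at this depth. The noncoding RNA 2610035D17Rik, on the far side of Sox9 from Kcnj2 in the order of RefSeq genes, stood at 22.8, 21.9, 22.3 and 22.1 CPM in R2 to R5 and at 16.3, 17.04, 10.8 and 15.9 CPM in WT. All 4 mutant values were above WT, and the gene rose by 0.57 on the log2 scale (adjusted p = 0.0363, edgeR). It also passed against both matched pairs (0.70 and 0.73), but in only 3 of the 8 fits that left out a library, with an adjusted p of up to 0.0884. Map2k6 (0.14), a kinase gene, Slc39a11 (-0.15), a zinc transporter gene, and BC006965 (-1.13, adjusted p = 0.0591) did not pass.

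Of 25 tested genes on the flanks of the locus 1 rose and 0 fell, beside 2.25% of all tested genes that rose and 1.60% that fell. A single call among 25 genes is near those shares. The median log2 fold change was 0.046, beside -0.01 over all genes tested. The 1 was Abca8b, of the ABC transporter family, at 19.3 to 21.1 CPM against 11.2 to 15.4 CPM, or 0.59 (adjusted p = 0.0275, edgeR). It did not pass against WT 3 and 4 (0.55, adjusted p = 0.0997). Among 12 tested inward-rectifier potassium channel genes, Kcnj2 was the 1 that passed, and 0 fell. Kcnj8, a subunit of ATP-sensitive channels, was at 1.29, 0.0267, 0.367 and 0.902 CPM in R2 to R5 and 0.425, 1.76, 2.65 and 3.61 CPM in WT (log2 fold change -1.67, adjusted p = 0.174, edgeR), a wide scatter within both groups. In the comparison with the mean of the other 4 mutant groups, Kcnj2 differed by 0.23 (adjusted p = 0.181), lying between Dup-C (75.2 and 87.7 CPM) and Dup-L (25.3 and 33.4 CPM).

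**Figure D2:**
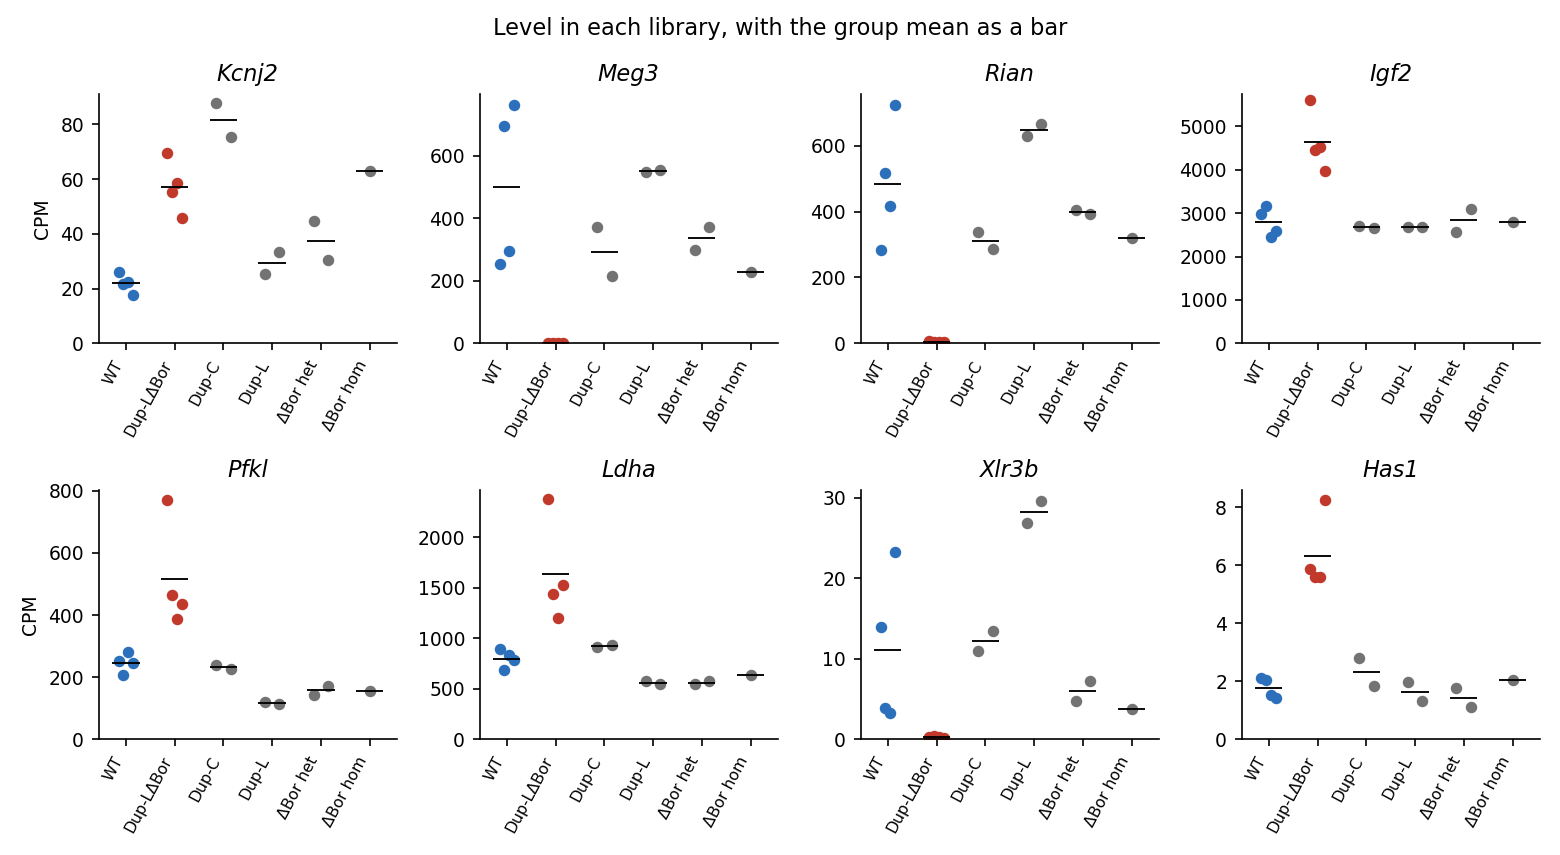
CPM of 8 genes in each of the 15 libraries by genotype (points), with the group mean as a bar; the vertical axes start at 0. Kcnj2 was above all WT libraries in Dup-LΔBor, Dup-C and both kinds of ΔBor, while near-absence of Meg3, Rian and Xlr3b and the high levels of Igf2, Pfkl and Has1 were seen in the 4 Dup-LΔBor libraries.

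The falls with the largest fold changes were of noncoding RNAs from the Dlk1-Dio3 region of chromosome 12. In this imprinted region the protein-coding genes Dlk1, Rtl1 and Dio3 are expressed from the paternal chromosome. The maternal chromosome expresses noncoding RNAs in the same orientation: Meg3, then Rian, which hosts small nucleolar RNAs, then Mirg, which hosts microRNAs. Allelic expression was not measured here. The first of the 2 promoters that RefSeq lists for Meg3 is shown because its transcript was nearly absent. In the RefSeq table for GRCm38.p6 (the counts were made on mm9) it reads, with each CG dinucleotide in capitals,

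Meg3 (chr12:109540746-109541045, plus strand): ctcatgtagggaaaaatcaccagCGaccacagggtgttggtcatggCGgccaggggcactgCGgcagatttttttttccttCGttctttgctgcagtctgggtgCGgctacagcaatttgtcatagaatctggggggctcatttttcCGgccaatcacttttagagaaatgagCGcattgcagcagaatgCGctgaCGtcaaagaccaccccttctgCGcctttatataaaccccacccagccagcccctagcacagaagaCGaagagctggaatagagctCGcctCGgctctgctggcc

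This window runs from 250 bases before to 50 bases after the start of transcription and holds 13 CG dinucleotides. The median over the 32851 promoters of the table is 7, and 37.9% hold 13 or more. Methylation was not measured in these samples.

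Meg3 had 7, 7, 5 and 11 reads in R2 to R5 and 13110, 38741, 15564 and 27413 in WT 1 to 4. That is 0.146, 0.187, 0.102 and 0.292 CPM against 253, 695, 296 and 761 CPM. All WT libraries were high, the Pitx1-high WT 1 and WT 3 less so than WT 2 and WT 4, and all Dup-LΔBor libraries were near 0. The log2 fold change was -11.46 (SE 0.58, adjusted p = 9.7e-07, edgeR), with -10.61 against WT 1 and 3 and -11.54 against WT 3 and 4. Rian was at 5.62, 4.48, 5.30 and 2.92 CPM against 283, 518, 417 and 723 CPM, or -6.72 on the log2 scale (SE 0.31, adjusted p = 2.0e-07, edgeR). Rian kept 807 reads over the 4 mutant libraries and Meg3 30, which per transcript length is 0.63 to 1.22 FPKM of Rian and 0.01 to 0.02 FPKM of Meg3. Mirg was at 0.271, 0.267, 0.346 and 0.159 CPM against 11.2, 25.2, 17.3 and 32.3 CPM, or -6.32 (SE 0.36, adjusted p = 5.0e-07, edgeR). All 3 passed every check.

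The whole region was then read from Dlk1 to Dio3. The table lists 78 genes between them, most of them microRNA and small nucleolar RNA loci. Of these, 41 had any count in the 8 libraries and 15 passed the filter on low counts. Among the 15, 11 fell and 0 rose, beside 1.60% of all tested genes that fell and 2.25% that rose. Since the filter kept genes that were counted in WT, these 11 are not a sample of all 78. The 26 counted genes that were not tested held 163 reads in WT together and 7 in Dup-LΔBor, the same direction as the tested ones. Besides Meg3, Rian and Mirg, the falls were of the small RNA loci AF357355, AF357359, AF357425_gene, AF357426, DQ267100 and DQ267102 and of the microRNA loci Mir377 and Mir3072. Of these, 4 had 0 reads in every Dup-LΔBor library. Against a floor of 3 counts per library, DQ267100 was at least 8.21-fold lower, DQ267102 at least 7.86-fold lower, AF357426 at least 5.51-fold lower and Mir377 at least 3.72-fold lower, bounds that cover counting error only. Mir377 lost its call against WT 3 and 4 (adjusted p = 0.0670, edgeR) and passed in 4 of the 8 fits that left out a library.

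The reads at Mir377 and Mir3072 come from polyA RNA, so they count the long transcript over the hairpin, and mature microRNAs were not measured. The mature sequences that these hairpins give are shown to identify them, from RefSeq (GRCm38.p6), with the seed (bases 2 to 8) in capitals. The 4 seeds differ from each other.

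miR-377-3p: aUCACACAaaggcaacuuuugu
miR-377-5p: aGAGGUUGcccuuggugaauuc
miR-3072-3p: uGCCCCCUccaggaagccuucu
miR-3072-5p: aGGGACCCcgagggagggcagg

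The paternally expressed genes of the region did not pass the test against WT. Dlk1, which encodes a Notch-related membrane protein, was at 266, 167, 203 and 138 CPM in R2 to R5 and at 77.5, 122, 128 and 146 CPM in WT 1 to 4. R5 lay below WT 4, so the groups overlapped, and the log2 fold change was 0.71 (SE 0.27, adjusted p = 0.140, edgeR). Rtl1, a retrotransposon-derived gene with a role in placenta and muscle, was at 2.41 to 6.28 CPM against 2.36 to 7.47 CPM (-0.26, adjusted p = 0.680). Dio3, the deiodinase that inactivates thyroid hormone, was at 0.796 to 1.04 CPM against 0.762 to 1.02 CPM (-0.03, adjusted p = 0.952), and its antisense neighbour Dio3os stood at -0.29 (adjusted p = 0.706). Rtl1, Dio3 and Dio3os each took a positive sign against WT 1 and 3, and Dio3 and Dio3os also against WT 3 and 4. No source used here states whether counting used strand, and reads of Rtl1 or Dio3 and of transcripts antisense to them may not be told apart. Of all tested genes 2.25% rose and 1.60% fell, and of 19 tested neighbours outside the region 1 rose and 0 fell, with a median of 0.069. That was Degs2, a sphingolipid enzyme gene, at 25.5 to 28.3 CPM against 14.2 to 24.7 CPM (0.60, adjusted p = 0.0290), which did not pass against WT 3 and 4 (0.40, adjusted p = 0.170).

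In the 7 libraries of the other mutant groups Meg3 was at 215 to 555 CPM, Rian at 286 to 667 CPM and Mirg at 9.75 to 21.1 CPM, all far above Dup-LΔBor. Dup-LΔBor differed from the mean of those 4 groups by -10.87 for Meg3 (adjusted p = 1.1e-06, edgeR), -6.44 for Rian and -5.69 for Mirg. Dlk1, at 49.1 to 111 CPM in those 7 libraries and at 138 to 266 CPM in Dup-LΔBor, was higher by 1.58 (adjusted p = 2.5e-04). In that comparison 48.3% of all tested genes passed, and all those libraries belong to the first library-number range, so genotype and range cannot be told apart in it. WT 3 and WT 4, in the range of Dup-LΔBor, held 296 and 761 CPM of Meg3.

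**Figure D3:**
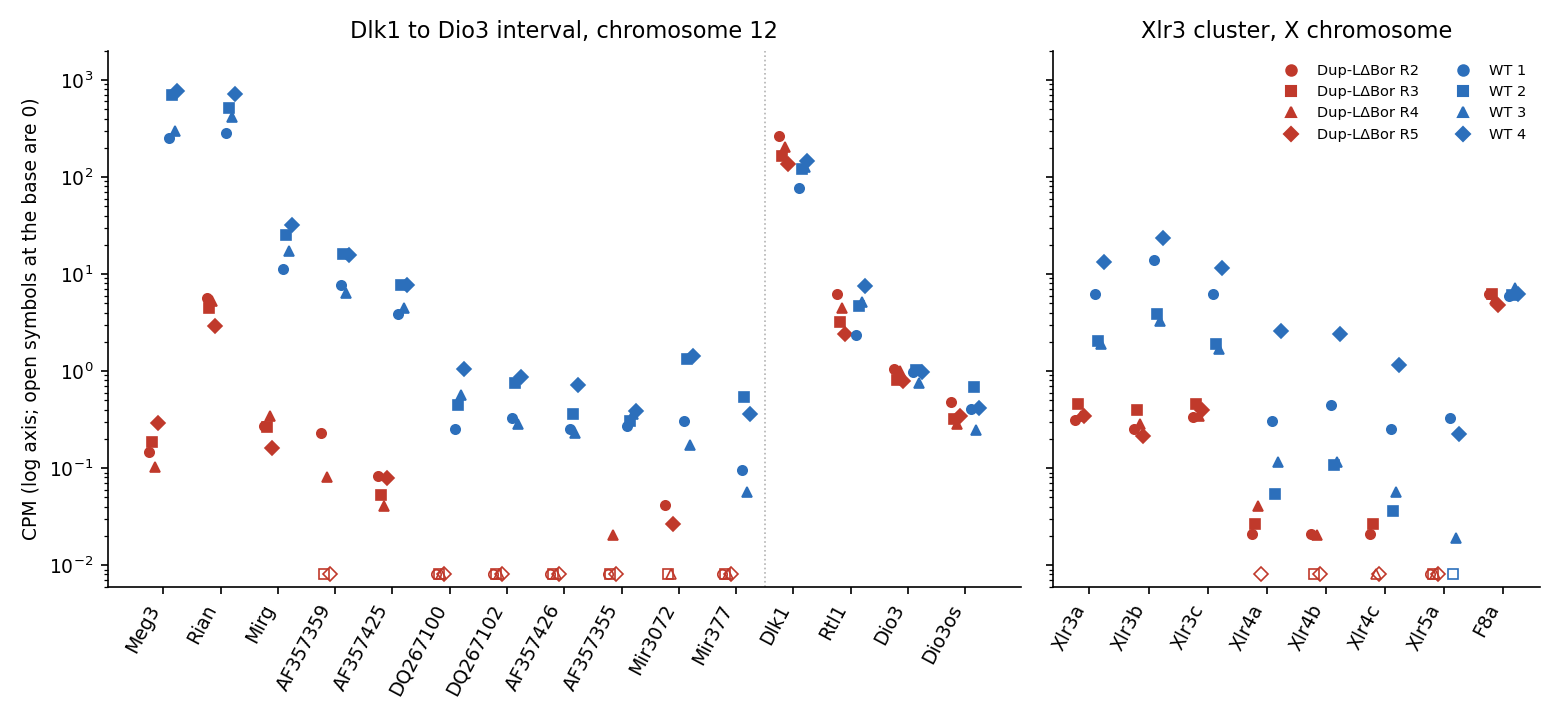
CPM on a log axis in each Dup-LΔBor (red) and WT (blue) library for the tested genes between Dlk1 and Dio3 and in the Xlr3 cluster; open symbols at the base are libraries with 0 counts, and the dotted line separates the 11 genes that fell from the 4 that did not pass. Meg3 was at 0.292 CPM or less in all 4 Dup-LΔBor libraries, while Dlk1 overlapped between the groups.

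A second cluster of falls lay on the X chromosome. The Xlr3 cluster holds near-identical X-linked lymphocyte-regulated genes, of which Xlr3b, Xlr4b and Xlr4c are known as imprinted genes expressed from the maternal X chromosome in mouse brain. Xlr3b was at 0.251, 0.400, 0.285 and 0.212 CPM in R2 to R5 and at 13.9, 3.86, 3.26 and 23.3 CPM in WT 1 to 4. The WT libraries differed widely among themselves, yet the lowest was far above every mutant library. The log2 fold change was -5.25 (SE 0.71, adjusted p = 0.00575, edgeR), with -4.91 and -5.51 against the matched pairs. Xlr3a fell by 3.99 and Xlr3c by 3.79 on the log2 scale (adjusted p = 0.0122 each), and all 3 passed every check.

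Of 14 listed genes of the Xlr3 cluster, 8 were tested, and 4 fell and 0 rose, beside 1.60% of all tested genes that fell and 2.25% that rose. The fourth, Xlr4b (-5.63, adjusted p = 0.0452, edgeR), rested on 121 reads in WT, most in WT 4, against 2, and passed in 3 of the 8 fits without a library. Xlr4a (-4.78, adjusted p = 0.0710), Xlr4c (-4.57, adjusted p = 0.0695) and Xlr5a (-5.57, adjusted p = 0.0906) missed the threshold, and Xlr5a had 0 reads in all 4 mutant libraries. F8a, another gene of this interval, was at 4.83 to 6.24 CPM against 5.89 to 7.24 CPM (-0.15, adjusted p = 0.534). Since the Xlr copies can share reads, their values are uncertain one by one and are better read as a group. The 7 libraries of the other mutants held 3.80 to 29.5 CPM of Xlr3b, all above Dup-LΔBor. Among the WT libraries the highest level of Xlr3b was in WT 4, with 0.583 CPM of Xist, and the next in WT 1, with 2265 CPM.

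Imprinted genes elsewhere moved less. Of 27 tested genes listed as paternally expressed 6 rose and 1 fell, with a median of 0.012, and of 19 listed as maternally expressed 1 rose and 0 fell, with a median of 0.061, beside 2.25% of all tested genes that rose and 1.60% that fell. The 1 fall was H13, which was listed with the paternally expressed Mcts2 although H13 itself is expressed mainly from the maternal chromosome. It is therefore not a fall of a paternally expressed gene. A single call among 19 or 27 genes is near those shares. The gene of this group that passed every check was Igf2, which encodes a fetal growth factor. It was at 5600, 4463, 4525 and 3973 CPM in R2 to R5 and at 2970, 3164, 2439 and 2580 CPM in WT. Every mutant library was above every WT library, and the log2 fold change was 0.73 (SE 0.12, adjusted p = 0.00731, edgeR), with 0.76 and 0.88 against the matched pairs. The 7 libraries of the other mutants held 2576 to 3088 CPM, also below Dup-LΔBor (difference 0.76, adjusted p = 6.5e-05, edgeR). In that comparison 48.3% of all tested genes passed, and genotype and library-number range cannot be told apart. H19, the maternally expressed neighbour of Igf2, is listed at 0 in all 8 libraries. So is Aldoa, a glycolytic enzyme gene that most cells express, and a 0 in the table therefore does not show that a gene was silent.

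Mcts2, a retrogene within an intron of H13, rose to 25.9 ± 2.62 CPM from 15.1 ± 2.37 CPM (0.78, adjusted p = 0.00575), and H13, a signal peptide peptidase gene, fell by 0.47 on the log2 scale (adjusted p = 0.0227), from 155 to 212 CPM in WT to 123 to 147 CPM. H13 was named after its values were seen. Reads of these overlapping genes may not be told apart. Kcnq1ot1, the noncoding RNA that silences its neighbours in cis, rose (0.74, adjusted p = 0.0200), at 37.9 to 49.9 CPM against 21.2 to 32.5 CPM. The libraries of the other mutants held 28.7 to 49.5 CPM of Kcnq1ot1, and Dup-LΔBor differed from their mean by 0.10 (adjusted p = 0.533, edgeR). Zdbf2, an imprinted zinc finger gene, rose to 59.2 to 68.6 CPM from 36.5 to 49.3 CPM (0.53, adjusted p = 0.0194). The maternally expressed transporter gene Slc22a18 was at 1.73 to 2.05 CPM against 0.761 to 1.33 CPM and rose (0.87, adjusted p = 0.0421). Mcts2 (adjusted p = 0.0547, edgeR) and Slc22a18 (adjusted p = 0.0926) did not pass against WT 3 and 4. Kcnq1ot1 did not pass against WT 1 and 3 (adjusted p = 0.0574), while Zdbf2 passed against both pairs. The remaining rises among the 6 were of Impact and of Dhcr7, a sterol reductase gene (0.37, adjusted p = 0.0210). The listing of Dhcr7 as paternally expressed is uncertain, so the 6 may not all be rises of paternally expressed genes. The count of 6 was 3 without WT 2 and 2 without R3. The fall of H13 was lost in each of those fits and without R4 or R5.

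Among 18 tested genes of IGF signalling, 0 rose and 1 fell, with a median of -0.159, and against WT 1 and 3 3 fell. Over all genes 1.60% fell against all WT and 3.52% against WT 1 and 3. The 1 was Igf1, a growth factor gene. It was at 20.1, 23.6, 19.1 and 15.8 CPM in R2 to R5 and 22.7, 49.5, 33.5 and 53.99 CPM in WT (-1.02, adjusted p = 0.0421, edgeR). WT 1 lay within the mutant range, and the value was -0.53 against WT 1 and 3 (adjusted p = 0.126) and -1.16 against WT 3 and 4 (adjusted p = 0.0386).

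Genes of glycolysis were higher in Dup-LΔBor. Glycolysis splits glucose to pyruvate, which lactate dehydrogenase turns to lactate when oxygen is short, and many of its enzymes are induced by the hypoxia-inducible factors. Of 21 tested members of the glycolysis and lactate list 10 rose and 0 fell, with a median log2 fold change of 0.751, beside 2.25% of all genes that rose and a median of -0.01. Against WT 1 and 3 there were 9 rises, with a median of 0.828. Against WT 3 and 4 there was 1, Pkm2, with a median of 0.67. With library-number range as a term 0 passed and the median was 0.683, and with only the 8 libraries in the fit 4 passed.

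Pfkl, the liver-type phosphofructokinase, was at 771, 465, 388 and 436 CPM in R2 to R5 and at 252, 207, 282 and 244 CPM in WT. R2 stood highest, and the lowest mutant library was above the highest WT library. The log2 fold change was 1.07 (SE 0.18, adjusted p = 0.0103, edgeR), with 0.93 against WT 1 and 3 (adjusted p = 0.0314) and 0.96 against WT 3 and 4 (adjusted p = 0.0923). It passed in all 8 fits that left out a library. Slc16a3, the lactate exporter, was at 182, 77.4, 60.01 and 88.7 CPM against 33.0 to 49.4 CPM (1.39, adjusted p = 0.0325), and Pfkp, the platelet-type phosphofructokinase, at 36.3, 17.4, 13.3 and 23.7 CPM against 10.1 to 11.8 CPM (1.07, adjusted p = 0.0256). Slc16a3 passed neither against WT 1 and 3 (adjusted p = 0.0842, edgeR) nor against WT 3 and 4 (adjusted p = 0.122). Pfkp passed against WT 1 and 3 but not against WT 3 and 4 (adjusted p = 0.164). With 1 library left out, Slc16a3 passed in 4 and Pfkp in 5 of the 8 fits. Eno1 (1.59) and Pkm2 (1.27) also rose, but the table holds further rows of both genes that can share their reads, and their values are uncertain.

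Because of that, 3 further enzymes were named after their values were seen. Ldha, lactate dehydrogenase A, was at 2382, 1434, 1198 and 1533 CPM in R2 to R5 and at 891, 683, 830 and 784 CPM in WT (1.04, SE 0.16, adjusted p = 0.00608, edgeR). Pgk1, phosphoglycerate kinase, was at 1368, 826, 716 and 1046 CPM against 508, 455, 595 and 559 CPM (0.90, SE 0.16, adjusted p = 0.0126). Tpi1, triosephosphate isomerase, was at 1147, 752, 620 and 776 CPM against 486, 446, 529 and 497 CPM (0.75, SE 0.14, adjusted p = 0.0182). In all 3 the groups did not overlap, R2 was the highest library and R4 the lowest mutant. Against WT 3 and 4 their adjusted p was 0.0535, 0.103 and 0.122, at 1.01, 0.77 and 0.67 on the log2 scale. Gapdh (0.51, adjusted p = 0.0534), Hk2 (1.02, adjusted p = 0.0554) and Ldhb (0.18, adjusted p = 0.247) did not pass, and Aldoa is listed at 0 in all 8 libraries.

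Hypoxia response genes outside glycolysis had a median of 0.652 over 33 tested members, of which 4 rose and 0 fell, beside 2.25% of all tested genes that rose. Slc2a1, the glucose transporter GLUT1, was at 496, 227, 193 and 247 CPM in R2 to R5 and at 137 to 147 CPM in WT (1.02, adjusted p = 0.0381, edgeR). Vegfa, the vascular growth factor, was at 331, 181, 142 and 219 CPM against 78.0 to 124.6 CPM in WT 1, 3 and 4 and just above that in WT 2 (1.08, adjusted p = 0.0329). Pdk1, which closes pyruvate entry to the citric acid cycle, was at 115 to 284 CPM against 90.5 to 108 CPM (0.91, adjusted p = 0.0383). Mif, a cytokine gene, was at 48.3 to 88.9 CPM against 35.0 to 48.6 CPM (0.76, adjusted p = 0.0340), and R5 lay just below WT 3. In Slc2a1, Vegfa and Pdk1 the groups did not overlap. Against the Pitx1-high WT 1 and 3, 3 of the 33 members rose, beside 4.72% of all genes, with a median of 0.616. Vegfa passed there, while Slc2a1, Pdk1 and Mif did not (adjusted p = 0.0907, 0.0607 and 0.102, edgeR). Of the 33 members 0 passed against WT 3 and 4, where the median was 0.612.

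R2 carried much of the size of these differences. The summed CPM of the glycolysis list was 11440, 7758, 6953 and 7790 in R2 to R5 and 4701 to 5775 in WT. For the hypoxia list it was 3870, 2404, 2196 and 2847 against 1960 to 2239, so that R4 lay within WT. Without R2 the median was 0.544 for glycolysis, where 8 rose, and 0.294 for hypoxia, where 1 rose. Glycolysis had 5 rises without WT 2. Hypoxia had 0 rises without WT 1, without WT 2 or without R3, 2 without WT 3 and 1 without R5. R2 was also the highest of the 8 libraries for the summed cartilage list (3587 CPM) and muscle list (1721 CPM), and the lowest for cell cycle genes (6524 CPM). Their part in the result was not tested. Of 26 tested genes of the citric acid cycle 0 passed in either direction, with a median of 0.011, and of 13 genes of the pentose phosphate and serine pathways 1 fell, Taldo1 (-0.31, adjusted p = 0.0476), beside 1.60% of all tested genes that fell.

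**Figure D4:**
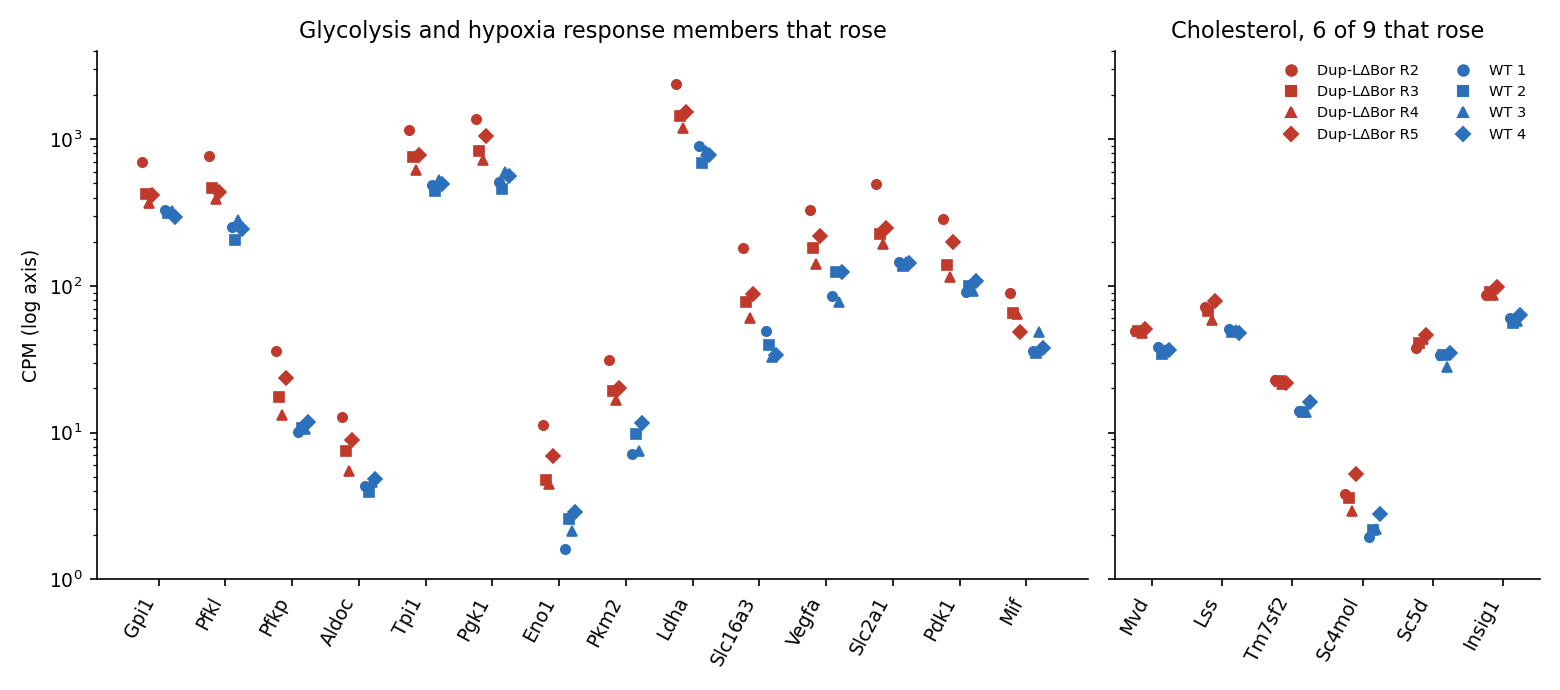
CPM on a log axis in each Dup-LΔBor (red) and WT (blue) library for the 14 genes of the glycolysis and hypoxia lists and for 6 of the 9 of the cholesterol list that rose. In the left panel R2 (red circles) is the highest library of every gene, with Ldha at 2382 CPM, while in the right panel R5 (red diamonds) is the highest of every gene but Tm7sf2, with Tm7sf2 at 21.4 to 23.0 CPM and Sc4mol at 2.91 to 5.20 CPM in the 4 Dup-LΔBor libraries.

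Hypoxia-inducible factors bind DNA at a core of ACGTG or GCGTG. The promoters of 4 genes that rose are shown with this core, on either strand, in capitals (RefSeq, GRCm38.p6, 250 bases before to 50 after the start). Where CACGTG occurs, which is also the E-box motif, its ACGTG is read on both strands.

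Ldha (chr7:46845554-46845853, plus strand): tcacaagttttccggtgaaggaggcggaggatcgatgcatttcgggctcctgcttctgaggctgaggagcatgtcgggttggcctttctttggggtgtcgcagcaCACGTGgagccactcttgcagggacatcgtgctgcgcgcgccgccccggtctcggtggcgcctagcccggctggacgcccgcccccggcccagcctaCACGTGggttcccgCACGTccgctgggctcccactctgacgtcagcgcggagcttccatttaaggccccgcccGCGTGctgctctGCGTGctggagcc
Pgk1 (chrX:106186850-106187149, plus strand): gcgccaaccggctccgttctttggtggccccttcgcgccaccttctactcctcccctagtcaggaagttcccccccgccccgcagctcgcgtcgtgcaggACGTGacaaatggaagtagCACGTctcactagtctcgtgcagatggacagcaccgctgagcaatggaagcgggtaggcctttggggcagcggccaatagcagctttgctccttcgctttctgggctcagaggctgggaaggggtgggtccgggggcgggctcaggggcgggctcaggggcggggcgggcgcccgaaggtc
Slc2a1 (chr4:119108495-119108794, plus strand): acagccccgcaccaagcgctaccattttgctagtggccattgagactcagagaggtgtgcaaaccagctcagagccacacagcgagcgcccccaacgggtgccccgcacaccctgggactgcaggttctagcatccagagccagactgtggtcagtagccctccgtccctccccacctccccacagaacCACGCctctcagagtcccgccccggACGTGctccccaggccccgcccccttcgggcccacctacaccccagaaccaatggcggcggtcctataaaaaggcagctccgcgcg
Pfkl (chr10:78009758-78010057, minus strand): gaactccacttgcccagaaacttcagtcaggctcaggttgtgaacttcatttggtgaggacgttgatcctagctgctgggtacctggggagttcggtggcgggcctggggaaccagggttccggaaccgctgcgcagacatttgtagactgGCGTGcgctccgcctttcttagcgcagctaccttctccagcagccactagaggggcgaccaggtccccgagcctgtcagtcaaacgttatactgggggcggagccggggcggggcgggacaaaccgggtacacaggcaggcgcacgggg

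Ldha holds 5 matches to ACGTG and 2 to GCGTG, Pgk1 2 and 0, Slc2a1 1 and 1, and Pfkl 0 and 1. Over all 27025 genes with a promoter in the table, 46.7% hold either core. Of the 56 genes of the glycolysis and hypoxia lists 45 have a promoter there, and 40 of these (88.9%) hold either core. Of the 14 that rose 13 have a promoter, of which 11 do (84.6%). A match is a description of letters and not a bound site; the 2 shares are given side by side and were not tested.

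Part of the cholesterol synthesis genes were higher in Dup-LΔBor, by less than those of glycolysis. Cells make cholesterol from acetyl-CoA in a long series of steps, and when sterols are low the SREBP2 factor turns on the enzymes and Insig1. Of 22 tested members 9 rose and 0 fell, with a median of 0.255, beside 2.25% of all genes that rose and a median of -0.01. The log2 fold change was positive in 22 of 22 against all WT, in 21 with DESeq2's scaling, in 18 against the Pitx1-high WT 1 and 3, in 20 against WT 3 alone, and in 19 without WT 4 or with limma. Insig1, which holds the SREBP complex in the endoplasmic reticulum, was at 86.1, 91.3, 87.3 and 98.6 CPM in R2 to R5 and at 60.9, 55.8, 57.2 and 63.6 CPM in WT (0.61, SE 0.10, adjusted p = 0.00608, edgeR). Tm7sf2, a sterol reductase, was at 23.0, 22.6, 21.4 and 21.7 CPM against 14.0, 13.8, 13.8 and 16.1 CPM (0.62, SE 0.09, adjusted p = 0.00366). Neither overlapped between the groups, and both passed every check.

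Sc4mol, a sterol methyl oxidase, was at 2.91 to 5.20 CPM against 1.95 to 2.78 CPM (0.77, adjusted p = 0.0472). Among the other rises were Lss, which closes the sterol rings (0.49, adjusted p = 0.0122), Mvd, of the mevalonate steps (0.43, adjusted p = 0.0199), and Sc5d, a sterol desaturase (0.37, adjusted p = 0.0411). Against WT 1 and 3 there were 6 rises and against WT 3 and 4 2, with medians of 0.199 and 0.392. With library-number range as a term 1 of 22 passed, with a median of 0.402. There were 3 without WT 2 or without R3, 4 without R2, and 5 without R4 or without R5. Summed over the list the libraries held 1735 to 1967 CPM in Dup-LΔBor and 1439 to 1743 CPM in WT, where WT 1 was the highest.

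Markers of other cells were then read to see whether the samples held the same tissue mix. In bulk samples, fewer cells of a type and less RNA per cell cannot be told apart. Of 24 tested genes of neural crest, glia and nerve 4 fell and 0 rose, with a median of -0.394, beside 1.60% of all tested genes that fell. Sox10, a defining neural crest factor, was at 6.55, 4.56, 4.91 and 5.54 CPM in R2 to R5 and at 7.90, 10.96, 10.9 and 8.91 CPM in WT (-0.84, adjusted p = 0.0200, edgeR). Foxd3, an early neural crest factor (-1.44, adjusted p = 0.0190), and the neurotrophin receptor gene Ngfr (-0.59, adjusted p = 0.0308) fell too. In these 3 genes the groups did not overlap, and the summed list was at 190 to 213 CPM in Dup-LΔBor and 215 to 254 CPM in WT. The number that passed was 0 without WT 2 or without R3, and 2 without R2, without R4 or against WT 3 and 4. Sox10 (adjusted p = 0.0583, edgeR) and Foxd3 (adjusted p = 0.0855) did not pass against WT 3 and 4, while Ngfr did. Against WT 1 and 3, Sox10 and Foxd3 passed and Ngfr did not (adjusted p = 0.0590, edgeR). In that comparison 3 genes of the list fell and 1 rose, beside 3.52% and 4.72% of all genes.

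Endothelium (25 tested, 1 fell, Aplnr at -0.50), macrophages (19 tested, 1 fell, Tyrobp at -0.54), surface ectoderm (28 tested, 1 fell, Krt15 at -0.94), erythroid blood (14 tested, 0 passed) and skeletal muscle (25 tested, 0 passed) had summed levels that overlapped between the groups. Over all tested genes 2.25% rose and 1.60% fell, and a single call in a list of this size is near those shares. Against the Pitx1-high WT 1 and 3, 8 of 28 ectoderm genes fell, with a median of -0.438 and 0 positive values, beside 3.52% of all genes that fell in that comparison. Their summed level was 1417 to 1692 CPM in Dup-LΔBor, 1986 and 2161 CPM in WT 1 and 3, and 1486 and 1532 CPM in WT 2 and 4. Against WT 3 and 4, 0 ectoderm genes passed, with a median of -0.177. Of 14 erythroid genes 2 fell against WT 1 and 3. Muscle genes summed to 765 to 1721 CPM in the mutant libraries, with R2 and R4 high and R3 and R5 low. Of 25 tested cartilage genes, among them the targets of Sox9, 0 passed in either direction, with a median of 0.069. Against the Pitx1-high WT 1 and 3, 4 cartilage genes rose, beside 4.72% of all genes, and the median was 0.535, and against WT 3 and 4 0 passed and it was 0.038. Spp1, a bone matrix gene, was the 1 of 15 bone genes that rose (1.86, adjusted p = 0.0198), at 3.61 to 7.90 CPM against 0.599 to 2.53 CPM. Spp1 did not pass against WT 3 and 4 (1.265, adjusted p = 0.0725, edgeR). In that comparison 1 bone gene fell, beside 0.689% of all genes that passed. Against WT 1 and 3, 2 bone genes fell and 1 rose, beside 3.52% and 4.72% of all genes. Of 19 tendon genes (median -0.287), 18 joint genes and 25 cell cycle genes 0 passed. Of 15 tested germline genes 1 fell, Xlr3a, with a median of -0.645. Of 19 amino acid and ER stress response genes 0 passed, and of 18 p53 targets 1 rose, Mdm2, the ubiquitin ligase for p53 (0.32, adjusted p = 0.0478). Mdm2 did not pass against WT 3 and 4 (0.21, adjusted p = 0.267, edgeR). It passed in 1 of the 8 fits that left out a library.

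Calls among limb patterning genes depended on the WT libraries compared. Of 23 tested apical ridge genes 2 fell against all WT, with a median of -0.268, Dkk1, a Wnt antagonist (-0.98, adjusted p = 0.0300), and En1, a ventral ectoderm factor (-0.71, adjusted p = 0.0431). Over all tested genes 1.60% fell, the share to set beside this list and the anterior-posterior list below. Against the Pitx1-high WT 1 and 3, 8 of 22 fell (3.52% of all genes did), with a median of -0.434 and 1 positive value, and against WT 3 and 4 0 passed, with a median of -0.218. The summed level of these genes was 940 to 1003 CPM in Dup-LΔBor, 1181 and 1112 CPM in WT 1 and 3, and 993 and 994.5 CPM in WT 2 and 4. Of 21 anterior-posterior genes 2 fell, the T-box gene Tbx3 (-0.71, adjusted p = 0.0361) and the homeobox gene Alx4 (-0.60, adjusted p = 0.0447). None of these 4 passed against WT 3 and 4. Of 21 distal and 20 proximal limb genes 0 passed, while against WT 1 and 3 1 distal gene rose, 2 fell, and 1 proximal gene fell. Tbx5, the forelimb factor, was at 86.2 to 113 CPM in Dup-LΔBor, 136 and 102 CPM in the Pitx1-high WT 1 and 3, and 234 and 191 CPM in WT 2 and 4. It passed against all WT (-0.75, adjusted p = 0.0494) and not against WT 1 and 3 (-0.29, adjusted p = 0.149).

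Ribosomal and respiratory chain genes gave 4 falls among 55 and 3 among 50 tested members, with medians of 0.019 and -0.052, beside 1.60% of all tested genes that fell. Rpl35, a protein of the large ribosomal subunit, was at 58.0 to 69.0 CPM in Dup-LΔBor and at 139, 134, 87.8 and 74.0 CPM in WT 1 to 4 (-0.74, adjusted p = 0.0290). WT 3 and 4, of the library-number range of Dup-LΔBor, were nearer to it than WT 1 and 2, and none of the 7 genes passed against them. Against WT 1 and 3, 5 of 55 ribosomal and 8 of 50 respiratory chain genes fell, with medians of -0.127 and -0.158, beside 3.52% of all genes. The immediate early genes Myc (-0.62, adjusted p = 0.0280) and Egr3 (-1.03, adjusted p = 0.0421) fell and Dusp1 (0.34, adjusted p = 0.0383) rose, among 26 tested. These calls stand beside 1.60% of all tested genes that fell and 2.25% that rose. None of them passed against WT 3 and 4 (adjusted p = 0.0835, 0.080 and 0.166, edgeR). Myc passed against WT 1 and 3 (adjusted p = 0.0454, edgeR), and Egr3 and Dusp1 did not. Myc, Egr3 and Dusp1 passed in 4, 3 and 2 of the 8 fits that left out a library.

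**Figure D5:**
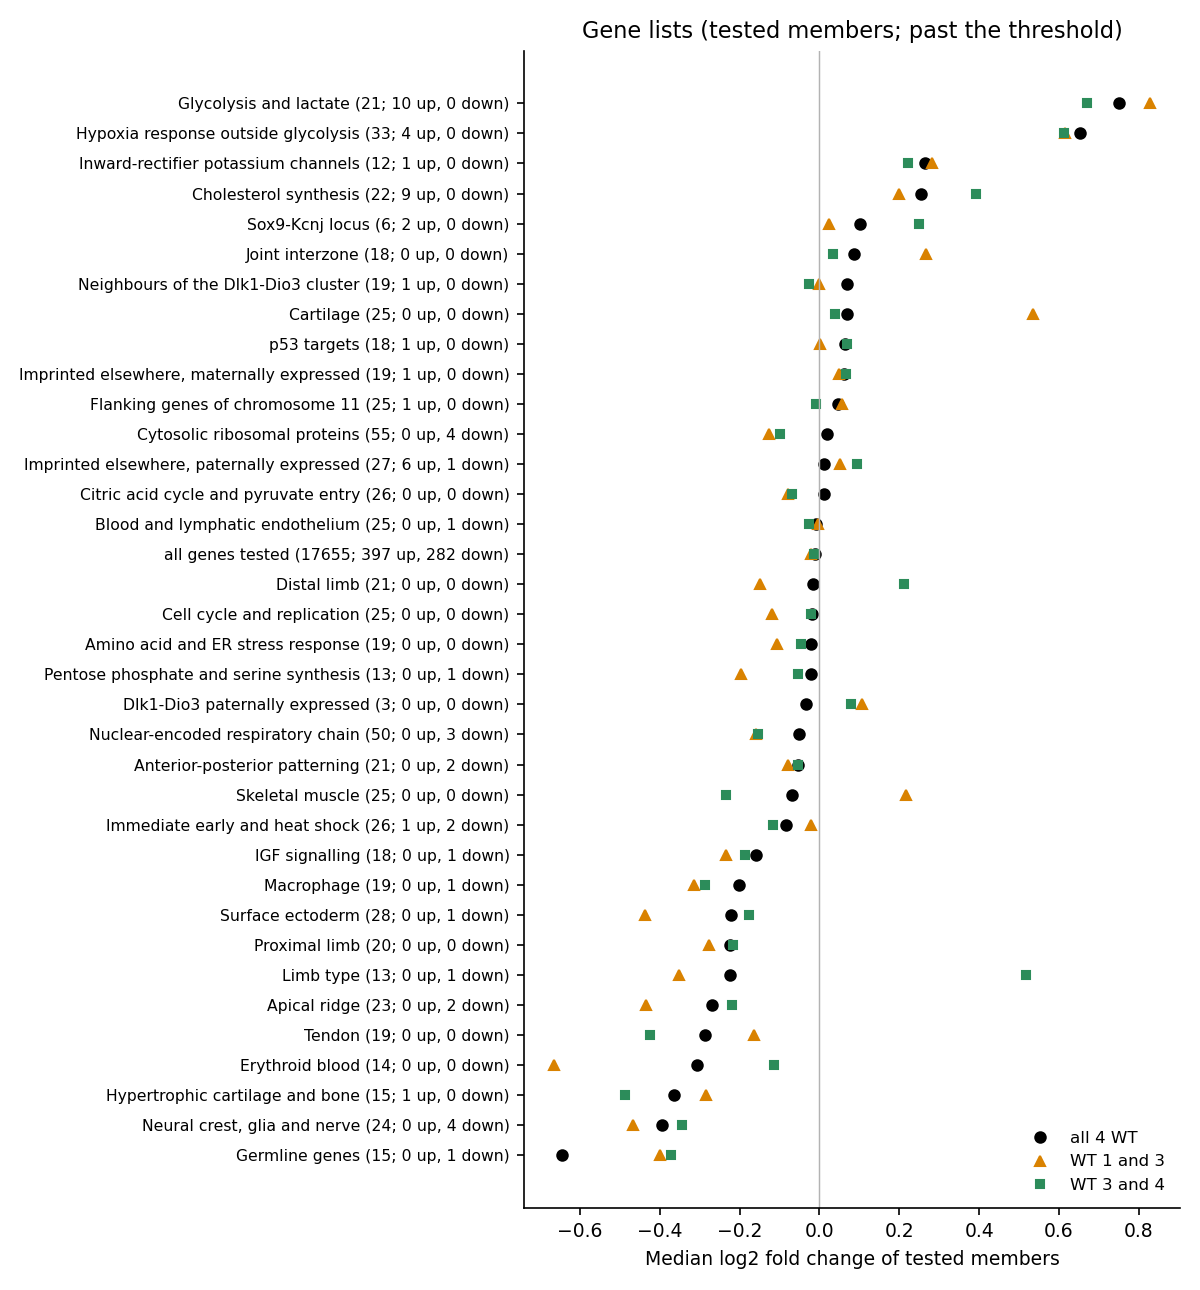
Median log2 fold change of the tested members of 35 gene lists and of all 17655 genes, in Dup-LΔBor against all 4 WT libraries (black), WT 1 and 3 (orange) and WT 3 and 4 (green); brackets give the tested members and how many rose and fell. The maternally expressed Dlk1-Dio3 list, at -6.86, lies off this scale and is left out with the sex-linked list; glycolysis (0.751) and hypoxia response (0.652) lie farthest to the right.

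Outside these lists, several single genes passed every check. 1700048O20Rik, a noncoding RNA of chromosome 9, was at 0.668, 0.961, 0.774 and 1.01 CPM in R2 to R5 and at 12.9, 7.64, 11.1 and 13.8 CPM in WT. All WT libraries and all 7 libraries of the other mutants (10.2 to 16.97 CPM) were far above Dup-LΔBor, and the log2 fold change was -3.74 (SE 0.23, adjusted p = 4.2e-07, edgeR). C130046K22Rik of chromosome 11 fell by 2.98 on the log2 scale (adjusted p = 2.2e-06), from 2.69 to 5.41 CPM in WT to 0.459 to 0.591 CPM. 2810047C21Rik1 of chromosome 7 fell by 3.77 (adjusted p = 0.00537), at 0.877, 0.107, 0.122 and 0.186 CPM against 2.06 to 6.45 CPM. In heterozygous and homozygous ΔBor it was at 1.09 to 2.37 CPM, also below the WT mean of 4.61 CPM. The homozygous ΔBor library, at 2.37 CPM, was however above WT 3, at 2.06 CPM. Dup-C and Dup-L held 4.47 to 9.50 CPM.

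S100a11, a calcium-binding protein gene, was at 44.4, 43.6, 44.2 and 48.1 CPM against 101, 89.2, 107 and 71.8 CPM (-1.03, SE 0.10, adjusted p = 1.1e-04, edgeR). Cyb561, a transmembrane electron transporter, was at 4.28 to 5.23 CPM against 8.17 to 12.6 CPM (-1.12, adjusted p = 5.2e-04). Slfn9, a Schlafen family gene, was at 22.2 to 24.8 CPM against 39.6 to 45.9 CPM (-0.84, SE 0.08, adjusted p = 5.2e-05). Each of these 3 genes had mutant values within a narrow band that no WT library reached. Further falls that passed every check were of Olfml3, a secreted matrix protein (-0.99), Hist2h2be, a histone gene (-1.02), Nhlrc1, a ubiquitin ligase gene (-0.87), Apod, an apolipoprotein gene (-0.73), Nsg2 (-0.69), Agtr2, an angiotensin receptor gene (-0.58), 9030025P20Rik (-1.05) and Polh, a DNA polymerase gene (-0.44).

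Has1, a hyaluronan synthase, was among the largest rises that passed every check. It was at 5.87, 5.60, 5.58 and 8.25 CPM in R2 to R5 and at 2.11, 2.03, 1.52 and 1.42 CPM in WT, and at 1.10 to 2.81 CPM in the other mutants. The Dup-LΔBor libraries were above all 11 others, and the log2 fold change against WT was 1.83 (SE 0.22, adjusted p = 7.1e-04, edgeR). Kcne3, an accessory subunit of potassium channels, was at 25.3, 16.6, 11.3 and 26.1 CPM against 6.45 to 7.45 CPM (1.51, adjusted p = 0.00366). Nefl, the light neurofilament chain, was at 11.9, 7.44, 10.7 and 8.17 CPM against 2.35 to 4.23 CPM (1.51, adjusted p = 0.00373). The rows EG633640 (2.28, adjusted p = 0.00140) and Gm7120 (1.97, adjusted p = 0.00381), which RefSeq gives as names of the same gene, stood at 1.17 to 2.11 CPM against 0.278 to 0.521 CPM.

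The other rises that passed every check were of Ano3, an anoctamin gene (1.79), the sodium channel gene Scn8a (0.77), the G-protein regulator Rgs9 (0.78), Pitpnm1 (0.78), Sema3b, a semaphorin gene (0.72), Bend4 (0.70), T2 (0.90), AK048595_gene (0.74), Pkm2 and a second row of Eno1 (1.57). Among the larger fold changes that did not pass every check were those of Atp1a4 (2.82, at 0.106 to 0.267 CPM against 0 to 0.0538 CPM), Gabrd (2.45), Tnfrsf9 (2.12), Neat1 (2.05) and G530011O06Rik (1.84, at 13.9 to 21.4 CPM against 1.91 to 7.12 CPM). Each of these 5 lost the threshold against WT 3 and 4.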

How the data were processed

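PolyA RNA of limb buds was sequenced from TruSeq RNA V2 libraries, per the labels' protocols. STAR, DESeq2, bedtools 2.17.0 and the genome build mm9 stand in the submitters' processing notes, while no source used here names the counting program, its annotation or its strand setting (not given in the sources used here). The authors deposited whole-number counts per gene, and an FPKM for each gene beside them. The count table lists 34682 genes, of which 10244 are at 0 in all libraries, and the 8 libraries compared hold 34486256 to 53711742 counts.

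Counts were tested with edgeR 4.0.16 (R 4.3.3): low counts were filtered with filterByExpr on the groups, scaling was by TMM, and the robust form of the quasi-likelihood test was used, with the 15 libraries at embryonic day 12.5 and their 6 genotype groups in 1 fit. The threshold was an adjusted p of 0.05 over 17655 tested genes. CPM uses the TMM-scaled library size, a standard error is the log2 fold change divided by the square root of F, and levels are compared between genes in FPKM only. The test was run on simulated counts of the 17655 genes: it recovered 69 of 100 genes changed by 1 on the log2 scale and 89 of 100 changed by 2, with 14 false calls. The simulated counts held no difference by limb type or library-number range, so the 14 false calls do not cover errors from those. Limma 3.58.1 on log2(FPKM + 1 or 0.1) and DESeq2 1.42.0 served as alternatives, beside other scaling, no filter, subsets of the WT libraries, a term for library-number range and each library left out in turn. A fold against a group at 0 uses a floor of 3 counts per library. Limma's fold changes are on the log2(FPKM + pseudocount) scale.

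The genes and lists were chosen with earlier results of these data known. Genes are named by rule: the markers Kcnj2, Meg3, Rian, Igf2 and Pfkl; the Sox9-Kcnj and Dlk1-Dio3 genes; the 12 largest rises and 12 largest falls without overlap; up to 4 called genes with the largest change in each list; and Pitx1, Tbx4, Tbx5 and Xist. Genes that passed every check, Ldha, Pgk1, Tpi1, Gapdh, Hk2, Ldhb, H13, Dhcr7, Kcnj8, F8a, the Xlr genes and the cholesterol genes beyond the first 4 were added after their values were seen. Some genes that the rule names are not reported here. Symbols in the table matched a chromosome for 92.9% of tested genes. Sequences are RefSeq's for GRCm38.p6.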

Additional observations from a re-analysis of the deposited data

Results flagged for a closer look

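Of 224 groups of 4 values that were examined, 14 had 1 library whose gap to the nearest of the other 3 was unusually large against the range of the group. Chance alone gives about 1 in 20 such groups. Among Dup-LΔBor libraries, R2 stood apart for Gabrd (0.459 CPM, next 1.47), Slc22a18 (2.045 CPM, next 1.78) and 2810047C21Rik1 (0.877 CPM, next 0.186). R4 held the single read of AF357355 in the group (0.0204 CPM, others 0). R5 was high for Has1 (8.25 CPM, next 5.87) and low for Cox7c (57.0 CPM, next 67.8) and Rps25 (225 CPM, next 266).

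Among WT libraries, WT 4 was high for Xlr4a (2.58 CPM, next 0.309), Xlr4b (2.39 CPM, next 0.444) and Tm7sf2 (16.1 CPM, next 14.0). WT 2 was high for Olfml3 (76.3 CPM, next 64.1) and low for Pitpnm1 (14.4 CPM, next 16.4). WT 1 was low for Nhlrc1 (2.92 CPM, next 3.52) and high for Xist (2265 CPM, next 1.005).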

How the results depend on the processing

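The 679 genes past the threshold became 1447 with WT 1 and 3 as the controls, 121 with WT 3 and 4, 66 with WT 3 and 4 and 6 libraries in the fit, and 349 with WT 3 alone, whose spread is then taken from the other groups. The number was 114 with only the 8 libraries, 70 with library-number range as a term, 227 with R4 and R5 summed, 1634 with DESeq2 (785 higher, 849 lower), 210 with limma without a filter (102 higher, 108 lower), and 46 over every check. Leaving out 1 library gave between 81 (without R3) and 1516 (without WT 4). It stayed within 1.5 times of 679 with WT 1 and 3 and 6 libraries (755), RLE scaling (705), no filter (502) and limma with a pseudocount of 1 (680) or 0.1 (613). Limma's splits were 300 higher and 380 lower, and 237 higher and 376 lower. The cause of these shifts was not tested, beyond fewer libraries in some fits.

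Signs turned for 6 genes, none of them past the threshold. In the order WT 1 and 3, the same with 6 libraries, WT 3 and 4, the same with 6 libraries, WT 3 alone, and the range term, Dio3 was at 0.052, 0.066, 0.078, 0.086, 0.26 and 0.087 and Dio3os at 0.12, 0.14, 0.14, 0.15, 0.53 and 0.15. Rtl1 was at 0.11 and 0.12 in the first 2 of these, and Pitx1 at -0.13 and -0.11, and -0.22 against WT 3 alone. Xist was at 0.27, 0.28, 0.54 and 0.29 in the last 4. With 1 library left out, Sox9 ranged from -0.036 to 0.15, Rtl1 from -0.55 to 0.0037, Dio3 from -0.12 to 0.023 and Dio3os from -0.49 to 0.023. Over all named genes and alternatives, 1788 values stayed on their side of the threshold with the same sign, 653 were no longer past it, 10 came to pass it and 28 changed sign.

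No paired analysis was possible because no label ties a replicate number to a litter, batch or day, and the columns R2 to R5 were not matched to the labels' numbers. The counts of 8523 genes against the other mutants, where all libraries differ in range, went to 7661 without Dup-L and to 7164 to 8083 with 1 library left out.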
